A study of Homo sapiens with 8 samples.

Results

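The mRNAs of 9 nonsense-mediated decay factors, UPF1, UPF2, UPF3A, UPF3B, SMG1, SMG5, SMG6, SMG8 and SMG9, were followed in keratinocytes whose mitochondria had been depolarized. The factors were chosen by gene symbol, and all 9 were found among the 61806 genes of the deposited table. N/TERT-1 is an immortalized line of human epidermal keratinocytes, and the cells of both groups were of WT genotype and were grown in keratinocyte serum-free medium. mRNA was sequenced from 4 libraries of cells given ethanol, the vehicle, and from 4 libraries of cells given oligomycin, which blocks the mitochondrial ATP synthase, together with antimycin A, which blocks respiratory complex III (O/A). By the study's account the treatment lasted 4 hours, and the labels state no dose. The labels number the libraries of each condition as biological replicates 1 to 4 of a single line, so the spread between libraries is that of repeated cultures.

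Nonsense-mediated decay removes mRNAs on which a ribosome terminates too early, and it also sets the level of many normal mRNAs, including stress response mRNAs. UPF1, an RNA helicase, is loaded on the mRNA and is phosphorylated by the kinase SMG1, whose activity is held in check by SMG8 and SMG9. UPF2 and the paralogs UPF3A and UPF3B connect UPF1 to the exon junction complex, a mark that splicing leaves on the mRNA. Phosphorylated UPF1 is bound by SMG6, an endonuclease that cuts the mRNA, and by SMG5, which helps to recruit deadenylation and decapping enzymes. The mRNAs of several of these factors are themselves known decay targets.

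Between 17210404 and 20999927 reads were counted in the ethanol libraries and between 17689760 and 19263046 in the O/A libraries. All 9 keratinocyte markers checked were expressed. Those of endothelial and immune cells were each below 1 FPKM (fragments per kilobase of exon, scaled to the depth of the library). Of 4 melanocyte markers MLANA and TYR were at 0 counts, DCT had at most 4 counts and PMEL was at 0.26 to 0.65 FPKM. The summed melanocyte signal was 0.33 to 0.64 FPKM in ethanol and 0.27 to 0.66 FPKM in O/A. Of 6 fibroblast markers only COL1A1 was measurable, at 2.38 to 2.94 FPKM, and the summed fibroblast signal was 2.42 to 2.95 FPKM in ethanol and 2.45 to 2.69 FPKM in O/A. The summed immune signal, mostly CD68, was 0.46 to 0.62 FPKM in ethanol and 0.65 to 0.88 FPKM in O/A, with PTPRC at no more than 1 count in any library. In such bulk libraries fewer cells with a transcript and less of it per cell cannot be told apart.

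Treatment with O/A lowered 3 of the decay factor mRNAs, UPF1, UPF2 and SMG6, and raised 2, SMG1 and SMG5, while the other 4 did not pass both thresholds. A gene passed when its adjusted p-value in edgeR's quasi-likelihood test was at most 0.05 and its absolute log2 fold change was above 0.25. All 9 factors had enough reads to be tested among 14893 genes. The share of factors that passed, 55.6%, compares with 34.7% of all genes tested, of which 15.8% passed upward and 18.9% downward. On the adjusted p-value alone 7 factors passed, beside 53.7% of all genes. The changes were small. The median absolute log2 fold change was 0.26 for the factors, 0.20 for all genes tested and 0.51 for the genes that passed. The median signed change was -0.11 for the factors and -0.00040 for all genes tested.

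**Figure D1:**
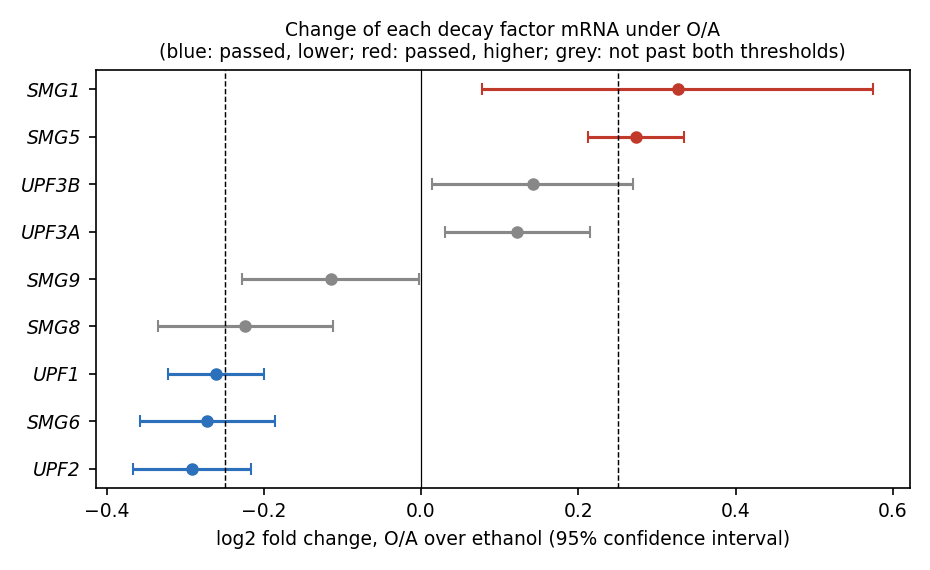
The log2 fold change of each decay factor mRNA between O/A and ethanol is plotted on the horizontal axis with its 95% confidence interval, and dashed lines mark the threshold of 0.25 in each direction. UPF2, SMG6 and UPF1 lie just past the lower threshold with narrow intervals, whereas SMG1 has the widest interval, from 0.078 to 0.57.

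The helicase UPF1 lies on chr19:18831959-18868230, plus strand (GRCh38). Its level in CPM, which are read counts brought to a common library size, here by TMM (trimmed mean of M-values), was 158.5, 147.7, 151.7 and 150.7 in ethanol replicates 1 to 4 and 128.2, 125.3, 127.2 and 127.5 in O/A replicates 1 to 4. Every O/A library lay below every ethanol library. The log2 fold change was -0.26 (standard error 0.030, edgeR adjusted p = 2.12e-10), a change of -16.5%, and the exact permutation test of 4 against 4 libraries gave p = 0.0286, which is the smallest it can give. The call rests on a value close to the fold threshold, since the log2 fold change was -0.24 without ethanol replicate 1 and -0.25, just inside the threshold, without O/A replicate 2.

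UPF2, the adaptor that activates UPF1, lies on chr10:11920022-12043170, minus strand. Its scaled CPM were 87.43, 81.21, 90.96 and 85.33 in ethanol and 69.60, 69.72, 71.10 and 71.26 in O/A. The groups did not overlap, and the O/A libraries were closer to each other than the ethanol libraries were. The log2 fold change was -0.29 (standard error 0.037, edgeR adjusted p = 2.61e-09), a change of -18.3%. UPF2 passed both thresholds in all 17 alternative settings that left the thresholds themselves unchanged.

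The paralogs UPF3A and UPF3B showed small positive differences that did not pass both thresholds. UPF3A, on chr13:114281601-114305817, plus strand, stood at 50.15, 48.79, 43.69 and 48.00 scaled CPM in ethanol and at 49.75, 49.57, 55.00 and 53.27 in O/A. The groups overlapped, and the log2 fold change of 0.12 (95% confidence interval 0.030 to 0.21) had an edgeR adjusted p-value of 0.0216 but stayed within the fold threshold. UPF3B, on chrX:119834022-119852998, minus strand, stood at 22.09, 24.45, 22.38 and 20.54 in ethanol and at 24.27, 23.38, 27.63 and 23.10 in O/A. O/A replicate 3 was the highest library for both paralogs. For UPF3B the log2 fold change was 0.14 (95% confidence interval 0.014 to 0.27, edgeR adjusted p = 0.0556), so a change as large as the threshold was not shut out by its interval.

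SMG1, the kinase that phosphorylates UPF1, lies on chr16:18804860-18926408, minus strand, and had the largest and least precise change of the 9 factors. Its scaled CPM were 181.8, 177.7, 156.0 and 208.0 in ethanol and 201.0, 244.7, 224.4 and 238.4 in O/A. Ethanol replicate 4 lay above O/A replicate 1, so the groups overlapped, and the highest ethanol library was 1.33-fold above the lowest, against 1.05-fold for SMG5. The log2 fold change was 0.33 (standard error 0.10, edgeR adjusted p = 0.0349), and the exact permutation test gave p = 0.0571. The call was lost in 8 of the 17 alternative settings with unchanged thresholds. These included leaving out any 1 of 6 of the 8 libraries, ethanol replicates 1, 2 and 3 and O/A replicates 2, 3 and 4, and the largest edgeR adjusted p was 0.0851 without O/A replicate 4.

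The spread of SMG1 within a condition moved together with that of other long mRNAs. The log2 difference of SMG1 from its ethanol mean was -0.205 in ethanol replicate 3 and 0.208 in ethanol replicate 4. PRKDC and TRRAP, which encode long members of the same kinase family, were at -0.27 and -0.19 in replicate 3 and at 0.24 and 0.21 in replicate 4. Over 458 tested coding genes whose canonical transcript has at least 10000 bases, the median difference from the ethanol mean was -0.073 in ethanol replicate 3 and 0.091 in ethanol replicate 4, and it lay between -0.022 and 0.034 in the O/A libraries. The part of transcript length in the result was not tested. Within each library the ratio of SMG1 to PRKDC in FPKM was 0.696 to 0.747 in ethanol and 0.795 to 0.856 in O/A, and the ratio of SMG1 to TRRAP was 1.63 to 1.70 in ethanol and 1.87 to 2.11 in O/A. Neither ratio overlapped between the conditions, although both reference genes were chosen after their values were seen and no test was made.

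SMG1 also has pseudogenes, partial copies of the gene elsewhere on the same chromosome, which could take some of its reads. The 7 SMG1 pseudogenes in the table together held 8.92% as many reads as SMG1 in ethanol and 10.6% in O/A. SMG1P7 alone went from 2.99% to 6.03%. It was read 86 to 116 times in the ethanol libraries and 202 to 286 times in the treated ones, and its log2 fold change was 1.33 (standard error 0.098, edgeR adjusted p = 7.34e-17). The other 4 pseudogenes with enough reads to be tested, SMG1P1, SMG1P2, SMG1P3 and SMG1P5, did not pass. Adding the reads of all 7 to those of SMG1 left its log2 fold change at 0.35 (edgeR adjusted p = 0.0208). How reads that align to several places were counted is not given in the sources used here, so this sum may not hold all of them.

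The rise of SMG1P7 was shared by its neighbours. SMG1P7 lies on chr16:70219574-70246612, minus strand, 165 bases from EXOSC6, an exosome subunit gene on chr16:70246778-70251940, which in turn lies 42 bases from AARS1, the cytosolic alanyl-tRNA synthetase gene on chr16:70251983-70289707, all on the minus strand in the order AARS1, EXOSC6, SMG1P7. AARS1 went from 14.1 ± 0.38 to 34.3 ± 1.06 FPKM (mean ± SD, n = 4 libraries each), a log2 fold change of 1.33 (edgeR adjusted p = 6.90e-39), and EXOSC6 from 5.88 ± 0.15 to 11.3 ± 0.88 FPKM, a log2 fold change of 0.98 (edgeR adjusted p = 2.59e-22). AARS1 was picked for its position and after its value was seen. Whether the 3 genes share transcripts was not tested.

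SMG8 and SMG9 form a complex with SMG1 and restrain its kinase activity. SMG8, on chr17:59209400-59215239, plus strand, stood at 30.81, 31.46, 30.93 and 31.40 scaled CPM in ethanol and at 27.15, 25.32, 29.38 and 24.77 in O/A. Every O/A library lay below every ethanol library, and the log2 fold change of -0.22 (standard error 0.055) had an edgeR adjusted p-value of 5.46e-04 but stayed within the fold threshold. Without O/A replicate 3, the highest of the O/A libraries, it was -0.28 and passed. SMG9, on chr19:43727983-43754962, minus strand, stood at 29.84, 26.47, 27.57 and 27.27 in ethanol and at 24.27, 26.51, 25.73 and 26.09 in O/A. The groups overlapped by a narrow margin, and its log2 fold change was -0.11 (95% confidence interval -0.23 to -0.0022, edgeR adjusted p = 0.0800).

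SMG5 and SMG6, the effectors that act on phosphorylated UPF1, changed in opposite directions. SMG5, on chr1:156249224-156282825, minus strand, was at 143.6, 142.6, 138.1 and 145.5 scaled CPM in ethanol and at 165.4, 172.8, 179.4 and 171.0 in O/A. It was the only factor for which every O/A library lay above every ethanol library, and its log2 fold change was 0.27 (standard error 0.030, edgeR adjusted p = 4.55e-11), a change of 20.9%. On FPKM values with limma the difference was 0.23 or 0.22, depending on the pseudocount, and with upper-quartile scaling it was 0.24, all within the fold threshold.

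SMG6, on chr17:2059839-2303785, minus strand, was at 60.92, 63.04, 60.83 and 65.44 scaled CPM in ethanol and at 53.03, 54.96, 50.56 and 48.85 in O/A. All O/A libraries were below all ethanol libraries, with a log2 fold change of -0.27 (standard error 0.042, edgeR adjusted p = 3.03e-07) and a change of -17.2%. Without ethanol replicate 4 the value was -0.25, just inside the fold threshold, and without O/A replicate 4 it was -0.24. SMG6 overlaps 2 expressed genes on the opposite strand, HIC1 over 3403 bases and SRR over 403 bases, with 75 to 187 and 193 to 290 counts per library. Both were lower in O/A, with log2 fold changes of -0.91 and -0.30, and their part in the SMG6 value was not tested, since whether reads were counted by strand is not given in the sources used here.

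**Figure D2:**
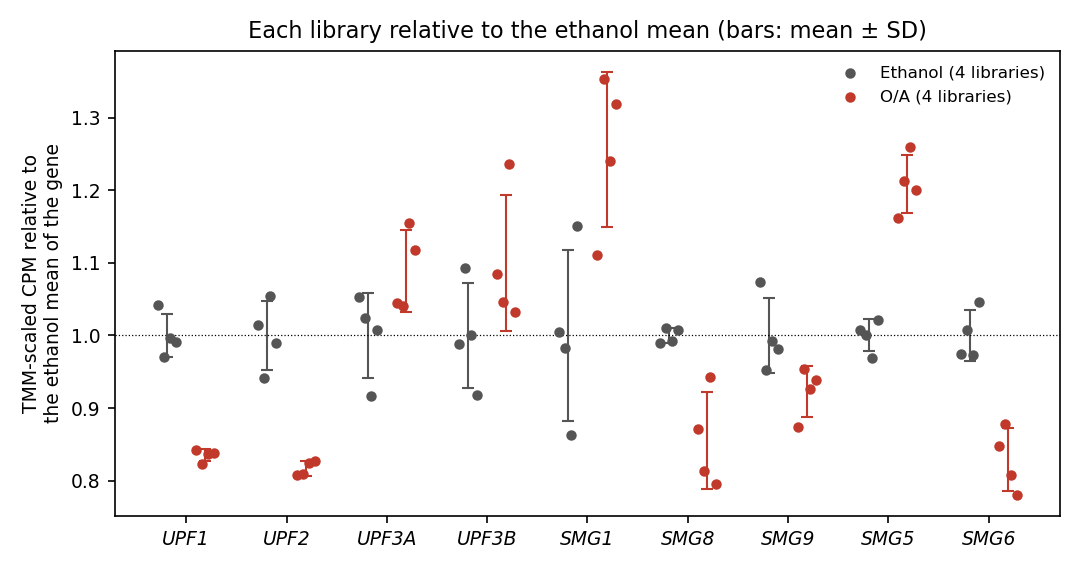
The TMM-scaled CPM of each library are plotted relative to the ethanol mean of the same gene, with points for the 4 ethanol (grey) and 4 O/A (red) libraries and bars for the mean ± SD. UPF1, UPF2, SMG8 and SMG6 are separated downward and SMG5 upward, whereas the SMG1 libraries spread widely in both conditions.

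By position, 5 of the 9 factors had O/A libraries that did not overlap the ethanol libraries, 4 below and 1 above, beside 47.6% of all genes tested. The 5 were UPF1, UPF2, SMG6, SMG8 and SMG5, which differ from the 5 that passed both thresholds by SMG8 in place of SMG1.

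The order of levels was compared in FPKM, which is per length of exon. The exon length of a gene in the deposited data exceeds its canonical transcript by differing amounts. It was 5755 against 2370 bases for UPF3A and 8573 against 5321 for UPF1, but 5304 against 4559 for SMG5. The order of genes depends on this length, and the change of a gene between conditions does not. In ethanol SMG5 had the highest FPKM of the factors at 27.2 ± 0.51 (mean ± SD, n = 4 libraries), followed by UPF1 at 18.0 ± 0.51 and UPF2 at 14.9 ± 0.73. A middle group held UPF3B at 8.96 ± 0.65, SMG8 at 8.44 ± 0.098, UPF3A at 8.40 ± 0.46 and SMG1 at 7.29 ± 0.84, whose neighbours overlapped in their library values. SMG6 at 6.003 ± 0.204 and SMG9 at 3.57 ± 0.18 were below this group without overlap.

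In O/A the levels were further apart at the top and the order of the middle changed. SMG5 stood at 31.9 ± 1.05 FPKM (n = 4 libraries), UPF1 at 14.6 ± 0.11 and UPF2 at 11.8 ± 0.12. The FPKM of SMG5 was thus 1.51 times that of UPF1 in ethanol and 2.19 times in O/A, and the size of both values depends on the exon lengths used. UPF3B at 9.55 ± 0.80, SMG1 at 8.87 ± 0.77 and UPF3A at 8.87 ± 0.44 overlapped with their neighbours. SMG8 at 6.998 ± 0.540, SMG6 at 4.82 ± 0.26 and SMG9 at 3.19 ± 0.12 each lay below the factor before it in every library.

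**Figure D3:**
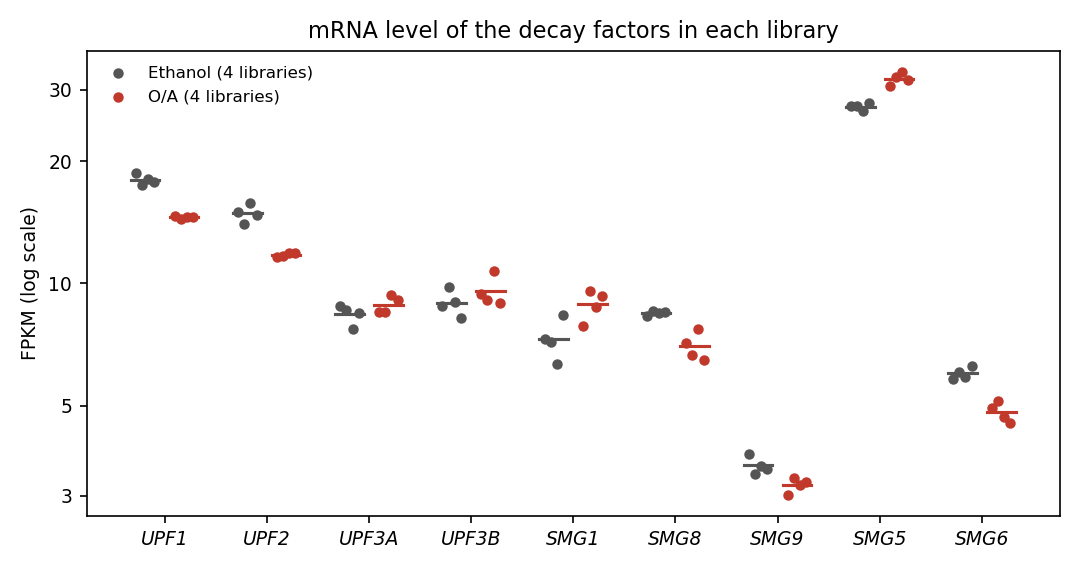
FPKM of each decay factor mRNA is plotted on a log axis for the 4 ethanol (grey) and 4 O/A (red) libraries, with a line at the mean. SMG5 is the highest in both conditions and SMG9 the lowest, and between ethanol and O/A SMG1 moves from below to above SMG8.

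Ratios within a library, which do not depend on how libraries are scaled to each other, were compared for 4 pairs of partners. The size of a ratio depends on the exon lengths used for FPKM, but its change between conditions does not. The ratio of SMG6, the endonuclease, to SMG5, the adaptor for deadenylation and decapping, was 0.213, 0.222, 0.221 and 0.226 in the ethanol libraries and 0.161, 0.160, 0.141 and 0.143 in the O/A libraries. The ethanol libraries were tightly grouped and all lay above the O/A libraries. The log2 difference was -0.54 (exact two-sided permutation p = 0.0286, the smallest possible, and 0.114 after adjustment over the 4 ratios).

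For the other 3 pairs the libraries of the groups overlapped. UPF3A to UPF3B was 0.941 ± 0.085 in ethanol and 0.931 ± 0.061 in O/A (mean ± SD, n = 4 libraries each, exact permutation p = 0.914), and UPF2 to UPF1 was 0.826 ± 0.033 and 0.808 ± 0.011 (exact permutation p = 0.400). SMG8 to SMG9 was 2.37 ± 0.14 in ethanol and 2.20 ± 0.22 in O/A (exact permutation p = 0.200). These p-values do not show that the ratios were equal.

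**Figure D4:**
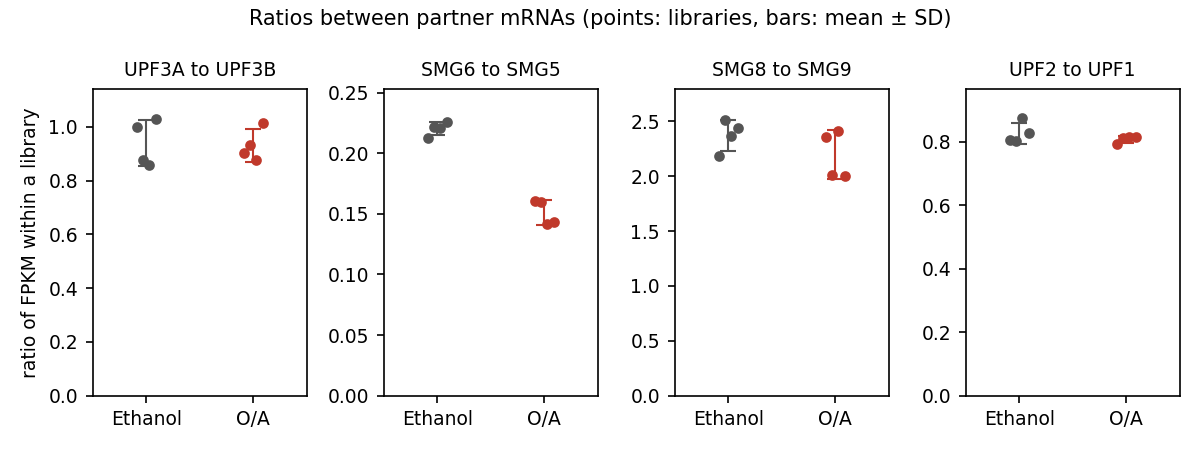
Ratios of FPKM between partner mRNAs are plotted for each ethanol and O/A library, with bars for the mean ± SD and axes that start at 0. Only the ratio of SMG6 to SMG5 separates, from 0.213 to 0.226 in ethanol and from 0.141 to 0.161 in O/A.

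The factors were also described by features of their annotated transcripts that mark decay targets, namely long 3′ untranslated regions, upstream start codons and splice junctions beyond the stop codon. From the GENCODE canonical transcripts, the 3′ untranslated region had 4709 bases in SMG1 and 3613 in SMG9, and 9.43% and 16.3% of tested coding genes have one at least that long. It had 1713 bases in UPF1, 1649 in SMG6, 1363 in SMG5, 1276 in UPF2, 900 in UPF3A, 856 in UPF3B and 228 in SMG8, around a median of 1331 over tested coding genes. Both factors that rose and 2 of the 3 that fell were above that median, and UPF2 was below it. An upstream ATG was present once each in UPF2, SMG1, SMG5 and SMG9, and 40.7% of tested coding genes had at least 1. No canonical transcript of the 9 had a junction more than 50 bases past its stop codon.

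Transcripts annotated as subject to nonsense-mediated decay were listed for UPF1 (2 of 17 transcripts), SMG1 (1 of 16), SMG8 (1 of 6) and SMG9 (1 of 13), and for none of the other 5 factors. Such transcripts are listed for 47.8% of tested coding genes. Gene counts do not separate these transcripts from the others.

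Of the 6 factors whose mRNAs are known as decay targets, UPF1, UPF2, UPF3B, SMG1, SMG5 and SMG6, 2 rose and 3 fell. Of the remaining 3, UPF3A, SMG8 and SMG9, none passed both thresholds. Over all genes tested 34.7% passed. The split rests on values close to the thresholds, since 3 of the 6 passed without ethanol replicate 1, O/A replicate 2 or O/A replicate 4. UPF1 (-0.240 and -0.245) or SMG6 (-0.245) then lay inside the fold threshold. In the same settings SMG1 stayed above the fold threshold but was lost on its edgeR adjusted p-value (0.0748, 0.0799 and 0.0851). SMG8 passed without O/A replicate 3 (-0.28), with limma on log2(FPKM + 0.1) (-0.27) and with upper-quartile scaling (-0.26).

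Promoter sequences were examined for the factors that had separated groups and passed both thresholds. The 250 bases upstream of the annotated start are shown from RefSeq on GRCh38, 5′ to 3′ on the strand of the gene, for the 3 mRNAs that fell (UPF1, chr19:18831709-18831958, plus strand, UPF2, chr10:12043171-12043420, minus strand, and SMG6, chr17:2303786-2304035, minus strand) and for SMG5, which rose (chr1:156282826-156283075, minus strand). Capitals mark the E-box CACGTG.
UPF1: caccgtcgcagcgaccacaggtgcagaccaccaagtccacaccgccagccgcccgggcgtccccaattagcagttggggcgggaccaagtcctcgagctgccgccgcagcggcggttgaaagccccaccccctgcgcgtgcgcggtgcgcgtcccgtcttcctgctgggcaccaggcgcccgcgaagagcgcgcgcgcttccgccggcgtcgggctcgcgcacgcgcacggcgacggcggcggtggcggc
UPF2: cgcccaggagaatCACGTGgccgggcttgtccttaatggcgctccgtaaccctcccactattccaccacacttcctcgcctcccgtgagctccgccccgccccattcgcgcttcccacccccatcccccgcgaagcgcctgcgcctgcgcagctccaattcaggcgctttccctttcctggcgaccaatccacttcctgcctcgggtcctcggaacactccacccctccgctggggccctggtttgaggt
SMG6: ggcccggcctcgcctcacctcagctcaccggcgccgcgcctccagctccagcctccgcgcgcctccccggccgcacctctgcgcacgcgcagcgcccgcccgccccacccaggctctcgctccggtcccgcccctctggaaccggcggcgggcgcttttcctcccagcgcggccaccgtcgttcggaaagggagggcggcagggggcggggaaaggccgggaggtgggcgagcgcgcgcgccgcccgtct
SMG5: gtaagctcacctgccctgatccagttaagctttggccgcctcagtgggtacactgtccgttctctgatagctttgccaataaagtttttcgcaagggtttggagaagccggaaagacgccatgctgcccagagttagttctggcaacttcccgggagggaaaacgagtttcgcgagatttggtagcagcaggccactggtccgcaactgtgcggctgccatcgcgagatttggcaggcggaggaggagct

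G and C made up 75.6% of the bases shown for UPF1, 66.0% for UPF2, 79.6% for SMG6 and 55.6% for SMG5. The letters of 5 motifs were searched on both strands in windows from 250 bases upstream to 50 bases downstream of the start, which matched 8 of the 9 factors. CACGTG, the E-box bound by MYC, USF and TFEB proteins, was found in UPF2 at position -237 and in 7.26% of 35116 promoter windows. GCATGCGC, the core of the NRF1 site, was found at position 38 of UPF3A and, as 2 overlapping matches at positions 27 and 29, in SMG9, and in 3.05% of all windows.

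The stress and cyclic AMP motifs were not found. TGATGCAA, an element bound by ATF4 and its partners (0.866% of windows), TGACGTCA, the cyclic AMP response element (1.85%), and ACTTCCGG, an ETS site (4.14%), were in none of the 8 windows. Among other annotated starts, 1 of SMG6 that lies 37600 bases inside the gene had CACGTG at position -46, and 1 of SMG5 that lies 8691 bases upstream had GCATGCGC at position -2. Such matches are descriptions of letters in a window and not of binding.

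The genes that work around these factors were taken as lists. Among 6 other cofactors of the pathway, DHX34, NBAS, PNRC2, MOV10, SEC13 and GNL2, 0 rose and 1 fell, with a median log2 fold change of 0.032. That was 16.7% of the list, beside 34.7% of all genes tested. The helicase DHX34, which promotes UPF1 phosphorylation, fell from 4.63 ± 0.19 to 3.42 ± 0.21 FPKM (n = 4 libraries each), a log2 fold change of -0.39 (edgeR adjusted p = 2.76e-07).

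Of 7 exon junction complex genes 1 passed, 14.3% of the list beside 34.7% of all genes tested. It was PYM1, which disassembles the complex on translated mRNA, and it fell by 0.40 on the log2 scale (edgeR adjusted p = 6.26e-10). Without O/A replicate 1, and with limma on log2(FPKM + 0.1), 2 of the 7 passed, the other being MAGOHB, a core subunit paralog that is named here after its values were seen. SMG1 belongs to the PIKK family, kinases that need the TELO2, TTI1 and TTI2 chaperone to be stable. Of 7 genes of this chaperone system 2 fell, TELO2 by 0.37 and TTI1 by 0.34 (edgeR adjusted p = 4.75e-06 and 2.42e-10), and 0 rose. These 2 were 28.6% of the list, beside 34.7% of all genes tested. The scaffold TELO2 went from 5.39 ± 0.30 to 4.04 ± 0.31 FPKM and TTI1 from 16.4 ± 0.74 to 12.6 ± 0.39 (n = 4 libraries each).

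Among the 5 other PIKK genes, ATM, ATR, MTOR, PRKDC and TRRAP, only the checkpoint kinase ATR passed, and it fell by 0.27 (edgeR adjusted p = 1.19e-05), but 0 of the 5 passed without ethanol replicate 4, O/A replicate 1 or O/A replicate 3. SMG1 was thus the only one of 6 PIKK genes to pass upward, but its call was lost in 8 of the 17 alternative settings with unchanged thresholds. The difference of SMG1 from the others was not tested. Of 6 translation termination genes 2 fell (33.3% of the list, beside 34.7% of all genes tested). These were ABCE1, a ribosome recycling factor, with a log2 fold change of -0.34 (edgeR adjusted p = 2.56e-15), and GSPT2, a release factor paralog with only 28 to 67 counts per library, at -0.40 (edgeR adjusted p = 0.0431). With ethanol replicate 1 or 3 or O/A replicate 1 or 3 left out, GSPT2 no longer passed and the count was 1. The count was also 1 with DESeq2, with limma on log2(FPKM + 1), with no filter and with a mean FPKM of at least 5.

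Of 37 general mRNA decay enzymes 7 rose and 6 fell, between EXOSC6 at 0.98 and DIS3L, a cytoplasmic exosome nuclease, at -0.52 (edgeR adjusted p = 3.96e-08). EXOSC6 lies 42 bases from AARS1, as described above, and whether the genes share transcripts was not tested. The 13 that passed were 35.1% of the list, about the 34.7% of all genes tested, and the median log2 fold change was -0.025.

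Of 12 transcripts that the pathway is known to degrade, 3 rose and 2 fell, with a median log2 fold change of -0.019. Whether ATF4 induces any of the 12 was not tested. These 5 were 41.7% of the list, beside 34.7% of all genes tested, of which 15.8% rose and 18.9% fell. The growth arrest gene GADD45A rose by 0.75, the autophagy gene GABARAPL1 by 0.63 and the noncoding host RNA ZFAS1 by 0.32 (edgeR adjusted p = 1.07e-22, 2.50e-12 and 7.37e-14). The host RNAs SNHG12 and SNHG15, which carry small nucleolar RNAs in their introns, fell by 0.96 and 0.61 (edgeR adjusted p = 1.40e-18 and 2.45e-14). The counts of SNHG12 were 620 to 932 in ethanol and 349 to 393 in O/A.

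Of all genes tested 15.8% rose. All 6 decay targets on the separate list of genes induced by the stress factor ATF4, namely ATF4, ATF3, DDIT3, SLC7A11, TRIB3 and SLC3A2, rose. The median of their log2 fold changes was 1.86. They ranged from SLC3A2, an amino acid transporter chain, at 1.00 (edgeR adjusted p = 5.54e-36) to DDIT3, a transcription factor of the stress response, at 3.90 (edgeR adjusted p = 1.41e-47). Transcription and decay of these mRNAs cannot be told apart in steady-state counts. The decay factors changed far less, between -0.29 and 0.33.

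**Figure D5:**
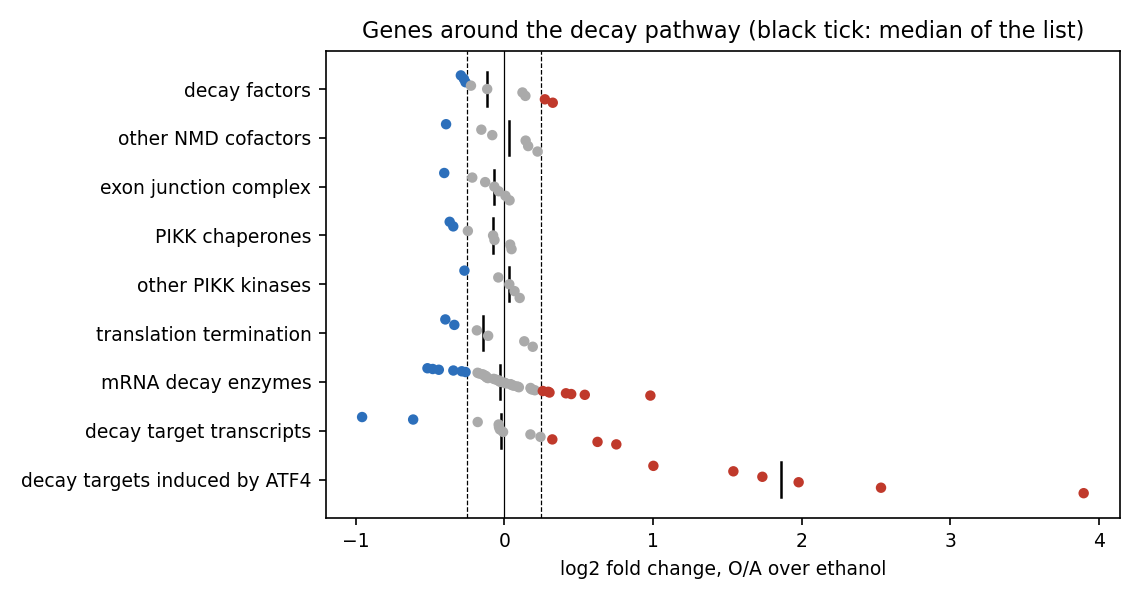
The log2 fold change of every tested gene of each list is plotted, in blue for genes that fell, red for genes that rose and grey for those that did not pass both thresholds, with a black tick at the median of the list. The 9 decay factors lie between -0.29 and 0.33 and the ATF4-induced decay targets between 1.00 and 3.90.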

How the data were processed

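mRNA was measured in 8 libraries, and the condition and replicate of each were taken from the sample titles. The authors selected mRNA with oligo(dT) beads, used HISAT2 2.0.1 to align the read pairs to GRCh38.p13 and counted them on genes with HTSeq 0.6.1. The deposited counts are raw. From them the authors derived the deposited FPKM. The annotation release and the strand setting are not given in the sources used here. The authors' own DESeq2 comparison (fold changes, standard errors, p-values, adjusted p-values) was not used.

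Differences were tested with edgeR 4.0.16 under R 4.3.3 (TMM scaling, robust quasi-likelihood test, Benjamini-Hochberg adjustment over the 14893 genes that reached 10 counts in 4 or more libraries), and scripts were tested on simulated data. FPKM served for levels between genes and for ratios. The members and the gene lists were chosen with earlier results of these data known. All 9 members were named, and of the lists the highest and lowest gene past the thresholds and, in 4 lists, every gene past the thresholds. Promoter windows came from RefSeq and transcript features from GENCODE. SMG8 had no promoter entry. 1 gene of the lists is not reported here.

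UPF3B had the fewest reads of the members, 393 to 522 per library, and its estimate is less precise than that of UPF1, with 2218 to 3205. Libraries of 1 condition differed by 1.76 to 5.74 chi-square units per degree of freedom, so none was a copy of another. Alternatives were DESeq2 1.42.0, limma 3.58.1 on log2(FPKM + 0.1) and log2(FPKM + 1), other filters, scalings and thresholds, the replicate number as a block and each library left out in turn. The SMG1 pseudogene sum and the ratios to PRKDC and TRRAP were added after seeing the data.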

Additional observations from a re-analysis of the deposited data

Results flagged for a closer look

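Of 26 groups of 4 libraries checked for a library far from the rest, 1 had one, where chance alone would give 1.3. The ratio of UPF2 to UPF1 in FPKM was 0.792 in O/A replicate 1 and 0.811 to 0.814 in the other 3 O/A libraries.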

How the results depend on the processing

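The number of genes past both thresholds, 5165, became 2183 with a mean FPKM of at least 5, 7999 with no fold threshold and 797 with an absolute log2 fold change above 1. It was 5160 with the replicate block, although same-numbered libraries of the 2 conditions deviated together only weakly (r between -0.048 and 0.145 over 10734 genes) and 3 of 8 libraries correlated best with their own number. Elsewhere the replicate block changed no call of a decay factor. With 1 library left out, 4987 to 5114 genes passed. The number of decay factors past both thresholds, 5, stayed at 5 with the replicate block and became 0 above a log2 fold change of 1, where those rising and falling were also 0. With 1 library left out, 3 to 5 factors passed, and 3 without ethanol replicate 1, O/A replicate 2 or O/A replicate 4. The number that rose, 2, was 1 with limma on log2(FPKM + 0.1), 1 with limma on log2(FPKM + 1), 1 with no filter and 0 with upper-quartile scaling, and ranged from 1 to 2 with 1 library left out. The number that fell ranged from 2 to 4 with 1 library left out. None of the 9 log2 fold changes changed sign in any setting. With 1 library left out, the log2 difference in the ratio of SMG6 to SMG5 ranged from -0.57 to -0.51, and that of UPF3A to UPF3B, whose groups overlapped, from -0.055 to 0.032. The filter on mean FPKM left SMG9 untested. Depth limits UPF3B and SMG9 most, with 393 to 522 and 422 to 580 counts per library.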

Other observations

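Among tested coding genes, 5858 have at least 1 transcript annotated as a nonsense-mediated decay target and 6405 have none. Of the former 14.9% rose and 16.7% fell in O/A, and of the latter 16.6% rose and 23.7% fell. Their median log2 fold changes were 0.0034 and -0.027. Of 4991 genes with an upstream ATG in the canonical transcript 16.9% rose and 23.0% fell. These shares are given as a description, with no test, and gene counts do not show which transcript was read.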
